A study of Homo sapiens with 4 samples.

Results

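The genes described here are 10 transcripts that the RAS-ERK pathway is known to induce, namely EGR1, FOS, ETV5, DUSP2, DUSP4, DUSP5, DUSP6, SPRY1, SPRY2 and SPRED1. They were chosen by symbol as a transcript readout of the pathway, and all 10 were found among the 41507 genes of the table. RNA had been sequenced from SU-DHL-5 and Toledo, 2 established lines of human diffuse large B-cell lymphoma labelled B lymphocyte. Each line received the solvent DMSO or JQ1, an inhibitor of the BET proteins, which read acetylated histones, at 1 µM. The labels give 6 h of treatment, while a legend of the study gives a longer time, so the duration is uncertain. Each of the 4 conditions was 1 sample, read as 2 libraries (8 in all), and what separates the libraries of a sample was not stated. No p-value is therefore given, and any difference is set beside the gap between libraries and the counting error of the reads.

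In this pathway, active RAS recruits RAF kinases, which switch on MEK and then ERK. ERK phosphorylates transcription factors, and immediate early genes such as EGR1 and FOS are transcribed within minutes. Slower targets brake the signal: DUSP phosphatases remove phosphate from ERK, and SPRY and SPRED proteins act upstream at RAS and RAF. Transcripts of these genes are used as a readout of ERK activity, although many also respond to other signals, and in B cells several are induced through the antigen receptor.

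Promoters of 3 members are shown because these genes gave the largest ratios of the members in Toledo, EGR1 and FOS upwards and DUSP2 downwards. Each is the 250 bases before the RefSeq start site (GRCh38.p14), 5′ to 3′ on the strand of the gene. Capitals mark CArG boxes (CC, 6 bases of A or T, GG) in EGR1, the TATA box TATAAA in FOS and the E-box CACGTG in DUSP2.
EGR1 chr5:138465229-138465478 (plus strand): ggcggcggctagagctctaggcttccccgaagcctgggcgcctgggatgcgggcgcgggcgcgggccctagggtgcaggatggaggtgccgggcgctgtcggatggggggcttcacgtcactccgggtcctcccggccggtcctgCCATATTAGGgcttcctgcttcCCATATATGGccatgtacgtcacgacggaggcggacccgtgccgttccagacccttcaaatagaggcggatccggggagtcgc
FOS chr14:75278578-75278827 (plus strand): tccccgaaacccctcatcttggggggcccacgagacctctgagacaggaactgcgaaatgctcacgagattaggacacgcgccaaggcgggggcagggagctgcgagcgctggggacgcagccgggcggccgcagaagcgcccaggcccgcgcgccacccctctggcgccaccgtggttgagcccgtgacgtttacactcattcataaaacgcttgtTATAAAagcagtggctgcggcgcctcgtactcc
DUSP2 chr2:96145441-96145690 (minus strand): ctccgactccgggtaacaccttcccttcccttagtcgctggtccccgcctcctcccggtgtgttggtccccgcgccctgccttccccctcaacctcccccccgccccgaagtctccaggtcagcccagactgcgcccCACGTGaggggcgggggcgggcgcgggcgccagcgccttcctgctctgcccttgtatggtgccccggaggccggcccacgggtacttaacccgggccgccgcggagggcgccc
RefSeq windows of 300 bases, from 250 before to 50 after a start site, were read for 7 of the 10 members (10 windows) and compared with all 35116 windows of the table, on both strands. A CArG box, the site that serum response factor binds, stood in 1.29% of all windows. Among the members read, EGR1 was the one whose window held it, with 2 boxes 105 and 83 bases before its start. Sequence more than 250 bases before a start was not searched, so sites further upstream would not be seen. TATAAA stood in 11.5% of windows and among members in FOS, 33 bases before its start. CACGTG, the E-box letters, stood in 7.26% of windows and among members in DUSP2, 113 bases before its start. The ETS letters CCGGAAG stood in 10.3% of windows and among members in SPRY1. The CRE letters TGACGTCA (1.85% of windows) and the AP-1 letters TGANTCA (7.71%) were not found in the 10 windows. No member held matches of different motifs.

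Depth was even, with 14617583 to 17679831 mapped reads recovered per library (median 16252335), and 94.8% to 95.5% of them lay on genes. Levels are in RPKM, reads per kilobase of gene, scaled to the mapped reads of the library, so levels of different genes are compared per length. Ratios are log2((JQ1 + 0.1)/(DMSO + 0.1)) of the mean RPKM of the libraries, for genes with a mean of at least 0.1 RPKM in a line, and a ratio past 2-fold was called. Ratios of reads per mapped read are given with exact binomial 95% intervals, which cover counting error only. Of 2 genes known to respond to JQ1, HEXIM1, which is induced, was higher with JQ1 in both lines, at log2 ratios of 2.43 (SU-DHL-5) and 2.57 (Toledo). MYC, which JQ1 lowers in many blood cancers, was within 2-fold in both, at -0.29 (SU-DHL-5, libraries apart) and 0.03 (Toledo, libraries overlapping). The 7 B-cell markers examined were each above 1 RPKM in every condition, and their summed level went from 943 RPKM with DMSO to 635 with JQ1 for SU-DHL-5 and from 931 to 629 for Toledo. Of the markers of other cells, 3 epithelial genes were at 0 in all conditions, and 4 T-cell genes summed to 0 to 1.01 RPKM, 4 myeloid genes to 0.134 to 1.34 RPKM and 4 fibroblast genes to 0.324 to 5.43 RPKM. The T-cell genes at 0 were 3 of 4 in 3 conditions and 4 in Toledo with JQ1, and the highest of these markers was DCN, at 5.37 RPKM in SU-DHL-5 with DMSO. Within each line the sums of these 3 lists were higher with DMSO than with JQ1, and their part in the ratios below was not tested.

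With DMSO, the levels of several members differed between the lines. In bulk RNA, fewer cells that express a gene and less RNA per cell cannot be told apart. In SU-DHL-5 with DMSO the order of mean levels was DUSP2 (34.4 RPKM), EGR1 (21.8), ETV5 (5.79), FOS (1.72), SPRED1 (1.22), DUSP5 (1.05), DUSP6 (0.720) and SPRY1 (0.0514), with DUSP4 and SPRY2 at 0. In Toledo with DMSO it was DUSP6 (8.61 RPKM), SPRY1 (3.37), ETV5 (3.30), SPRED1 (1.48), DUSP2 (1.00), DUSP5 (0.813), FOS (0.558), EGR1 (0.366), DUSP4 (0.177) and SPRY2 (0.0766). Neighbours whose libraries overlapped were SPRY1 with ETV5 and DUSP2 with DUSP5, both in Toledo; the libraries of all other neighbours above 0 were apart in both lines. EGR1, a zinc finger transcription factor, had a level 59.5-fold higher in SU-DHL-5 than in Toledo (2230 reads against 39, interval 43.3 to 83.7). DUSP2, a nuclear phosphatase first known from activated lymphocytes, was 34.3-fold higher in SU-DHL-5 (1895 reads against 57, interval 26.5 to 45.7). FOS, a subunit of AP-1, was 3.07-fold higher in SU-DHL-5 (interval 2.13 to 4.48).

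The opposite order held for the cytoplasmic ERK phosphatase and a Sprouty gene. DUSP6 was 11.97-fold higher in Toledo (820 reads against 66, interval 9.31 to 15.6), and SPRY1 was 65.6-fold higher there (407 reads against 6, interval 29.8 to 179). DUSP4 and SPRY2 had no read in SU-DHL-5 with DMSO, which allows up to 0.0250 and 0.0304 RPKM (3 reads over both libraries), so their mean levels in Toledo were at least 7.08-fold and 2.52-fold higher than in SU-DHL-5. With the counting error of the 22 and 8 reads in Toledo included, the lower interval limits were 5.28-fold and 1.64-fold. Of the 8 members that passed the filter in DMSO, 2 were called higher in Toledo and 3 higher in SU-DHL-5, while over all 11781 genes tested the shares were 19.3% and 15.1%. SPRY1, called higher in Toledo, passed the filter only through that line, since it was at 0.0514 RPKM in SU-DHL-5. With a pseudocount of 1 RPKM its log2 ratio of Toledo to SU-DHL-5 was 2.06, against 4.52 with 0.1. ETV5 was 1.76-fold higher in SU-DHL-5, SPRED1 was 1.21-fold higher in Toledo, and DUSP5 differed by less than its counting interval. The lines also differ in everything else, so these gaps cannot be tied to the pathway.

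**Figure D1:**
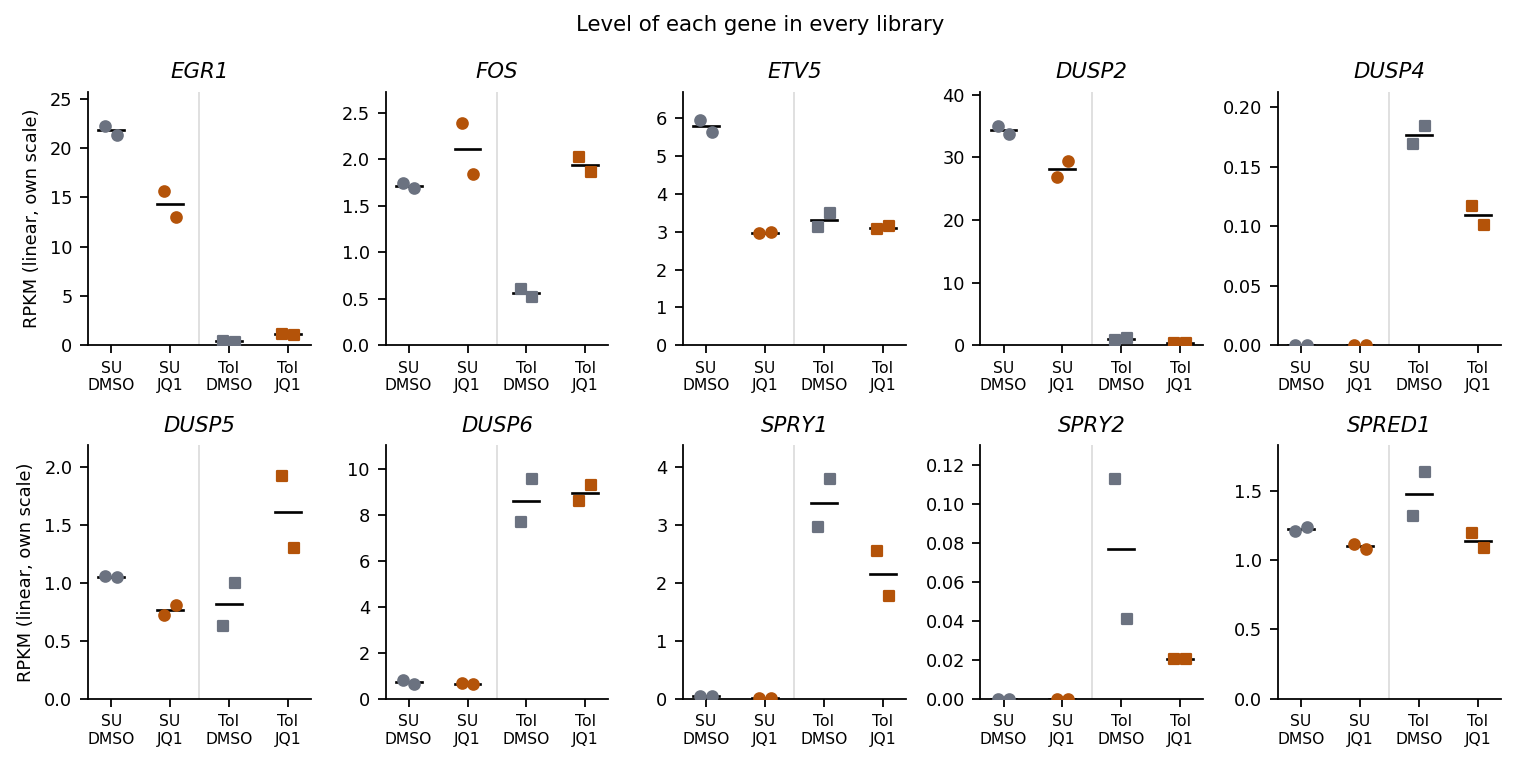
RPKM of the 10 genes (a linear axis of its own per gene) in every library; circles are SU-DHL-5 (SU), squares are Toledo (Tol), grey is DMSO, orange is JQ1, and the black line is the mean of the 2 libraries of a sample. EGR1 and DUSP2 are high in SU-DHL-5, DUSP6 and SPRY1 are high in Toledo, and the JQ1 libraries of EGR1 lie below the DMSO libraries in SU-DHL-5 and above them in Toledo.

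Among the immediate early members, EGR1 moved in opposite directions in the lines and FOS was higher with JQ1 in both. EGR1 (chr5:138465492-138469315, positions as in the table, GRCh38) measured 22.3 and 21.3 RPKM in the DMSO libraries of SU-DHL-5 and 15.6 and 13.05 RPKM in the JQ1 libraries. The libraries of Toledo held 0.379 and 0.353 RPKM with DMSO and 1.14 and 1.07 RPKM with JQ1. The treatments did not overlap in either line. The ratio of reads was 0.662 in SU-DHL-5 (interval 0.619 to 0.708), within 2-fold, and 3.01 in Toledo (interval 2.07 to 4.45, 39 reads against 112), past 2-fold. With JQ1 the level of EGR1 in Toledo was still far below that in SU-DHL-5.

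FOS (chr14:75278778-75282234) measured 1.74 and 1.69 RPKM with DMSO and 2.39 and 1.84 RPKM with JQ1 in SU-DHL-5. Levels in Toledo were 0.603 and 0.514 RPKM with DMSO and 2.02 and 1.87 RPKM with JQ1. The treatments did not overlap and JQ1 was the higher one in each line, narrowly so in SU-DHL-5. The ratio of reads was 1.24 in SU-DHL-5, with an interval that includes no change (0.968 to 1.59), and 3.47 in Toledo (2.43 to 5.05). On the log2 scale FOS had a higher ratio than 99.3% of the genes tested in Toledo, and EGR1 a higher one than 98.9%.

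ETV5 (chr3:186046317-186109112), an ETS transcription factor of the PEA3 group that depends on ERK in many tissues, gave the lowest ratio of the members tested in SU-DHL-5. It measured 5.95 and 5.64 RPKM with DMSO and 2.96 and 2.99 RPKM with JQ1 there, and the treatments were well apart. The ratio of reads was 0.513 (interval 0.452 to 0.581), or 1.95-fold lower, just inside the 2-fold limit. In Toledo the libraries overlapped, at 3.12 and 3.48 RPKM with DMSO and 3.07 and 3.14 RPKM with JQ1, and the ratio was 0.944 (interval 0.824 to 1.081). With JQ1 both lines thus held a like level of ETV5, 2.97 and 3.11 RPKM. ETV5 shares 164 exon bases with DGKG in the GENCODE annotation, and DGKG was at 0 to 0.0329 RPKM.

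**Figure D2:**
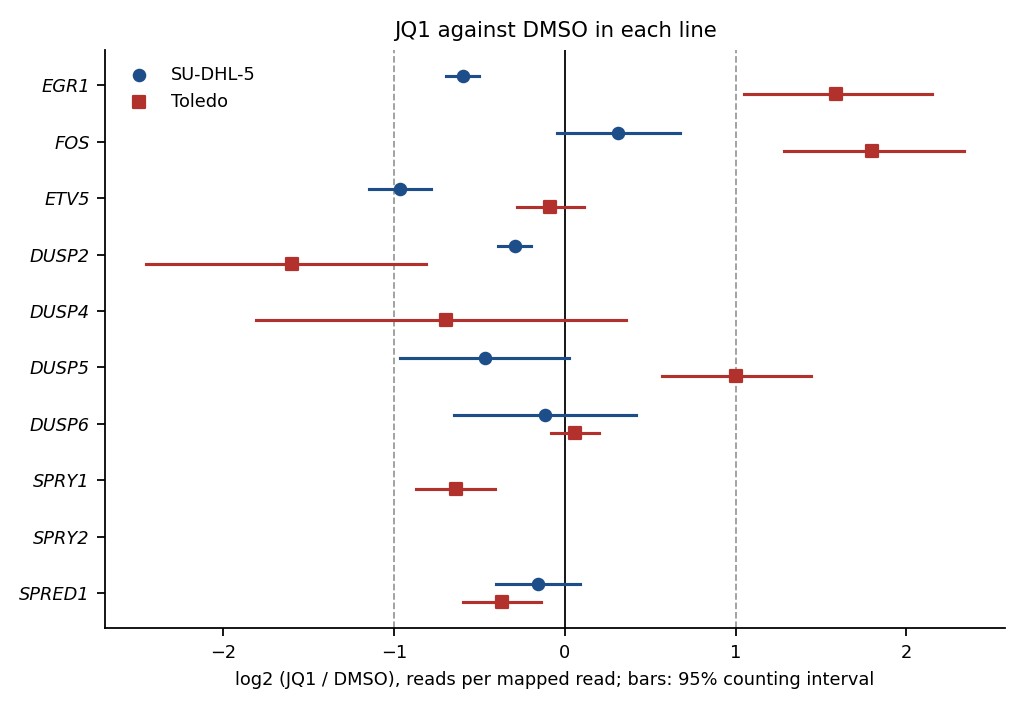
Log2 ratio of JQ1 to DMSO in reads per mapped read (x axis) for each gene in SU-DHL-5 (circles) and Toledo (squares); bars are 95% counting intervals and dashed lines mark 2-fold. Genes under the filter are not drawn; EGR1 lies on opposite sides of 0 in the lines, and FOS and EGR1 in Toledo lie past the upper 2-fold line.

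The 4 phosphatases did not move as a group. DUSP2 (chr2:96143169-96145440) measured 35.1 and 33.8 RPKM with DMSO and 26.9 and 29.4 RPKM with JQ1 in SU-DHL-5, a ratio of reads of 0.816 (interval 0.762 to 0.874). In Toledo it measured 0.839 and 1.17 RPKM with DMSO and 0.365 and 0.294 RPKM with JQ1, a ratio of 0.331 (interval 0.183 to 0.570). JQ1 libraries lay below DMSO libraries in both lines, and DUSP2 was the only member called below 1/2, in Toledo, on 57 reads against 18.

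DUSP5 (chr10:110497867-110511544), a nuclear phosphatase specific for ERK, went in opposite directions. It measured 1.06 and 1.05 RPKM with DMSO and 0.719 and 0.812 RPKM with JQ1 in SU-DHL-5, where the ratio of reads was 0.724 and the interval, 0.512 to 1.02, included no change. In Toledo it measured 0.626 and 0.999 RPKM with DMSO and 1.92 and 1.299 RPKM with JQ1, and the ratio was 2.003 (interval 1.49 to 2.72), inside the 2-fold limit on the scale used for calls. The libraries did not overlap in either line. In Toledo, library 2 differed from library 1 by 0.60 with DMSO and by -0.53 with JQ1 on the log2 scale. By library number the log2 ratio was 1.48 (library 1) and 0.35 (library 2). The numbers do not pair libraries across treatments, so that gap depends on an arbitrary match.

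DUSP6 (chr12:89348060-89352519), the cytoplasmic phosphatase that is the usual marker of ERK output, overlapped between treatments in both lines. In Toledo, where it was well expressed, it measured 7.66 and 9.56 RPKM with DMSO and 8.59 and 9.29 RPKM with JQ1, a ratio of reads of 1.04 (interval 0.946 to 1.15). In SU-DHL-5 it measured 0.813 and 0.627 RPKM with DMSO and 0.688 and 0.631 RPKM with JQ1, a ratio of 0.923 with a wide interval (0.637 to 1.33). An antisense gene shares 1875 exon bases with DUSP6, and whether the counting used strand was not stated. In Toledo, nearly all DUSP6 reads were placed on the longer of its 2 listed transcripts (373 and 419 of 382 and 438 reads with DMSO). In SU-DHL-5 with DMSO that transcript held 28 and 27 of 36 and 30 reads.

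DUSP4 (chr8:29333062-29350750), another nuclear phosphatase, had no read in any library of SU-DHL-5. Toledo held 0.170 and 0.185 RPKM with DMSO and 0.117 and 0.101 RPKM with JQ1, and the treatments did not overlap. These rest on 22 and 13 reads, and the interval of their ratio, 0.286 to 1.28, included no change.

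No Sprouty or Spred member was past 2-fold in either line. SPRY1 (chr4:123396791-123403760), an inhibitor of receptor signalling to RAS, measured 2.96 and 3.79 RPKM with DMSO and 2.55 and 1.77 RPKM with JQ1 in Toledo. The treatments did not overlap, and the ratio of reads was 0.643 (interval 0.547 to 0.755). Library 2 differed from library 1 by 0.35 with DMSO and by -0.50 with JQ1 on the log2 scale. By library number the log2 ratio was -0.21 (library 1) and -1.06 (library 2), but the numbers do not pair libraries across treatments. In SU-DHL-5, SPRY1 had 6 reads with DMSO and 2 with JQ1 and was under the filter.

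The gap between the SPRY1 libraries lay in 1 of its 5 listed transcripts. The transcript that begins at position 123398386 of chromosome 4 held 64 and 103 reads with DMSO in Toledo and 58 and 3 reads with JQ1. The transcript that begins upstream, at 123396791, held 117 and 112 reads with DMSO and 89 and 96 with JQ1. The ETS letters in SPRY1 stand 67 bases before the RefSeq start of the downstream transcript. How reads of shared exons were divided between transcripts was not stated, so these reads are estimates of that division.

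SPRED1 (chr15:38252724-38357249), which brings the RAS-inactivating protein NF1 to the membrane, was close to 1 RPKM everywhere. It measured 1.21 and 1.24 RPKM with DMSO and 1.12 and 1.079 RPKM with JQ1 in SU-DHL-5, a ratio of reads of 0.898 (interval 0.757 to 1.07). In Toledo it measured 1.32 and 1.64 RPKM with DMSO and 1.19 and 1.09 RPKM with JQ1, a ratio of 0.775 (interval 0.661 to 0.909). JQ1 libraries were below DMSO libraries in both lines, by little in SU-DHL-5. SPRY2 (chr13:80335976-80340968) was at 0 in SU-DHL-5. Its 8 reads with DMSO and 2 with JQ1 in Toledo were too few for the filter.

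Counted together, 7 members passed the filter in SU-DHL-5 and 9 in Toledo. None of the 7 was below 1/2 or above 2 with JQ1 in SU-DHL-5, where 8.39% and 2.11% of all 10835 genes tested were. In Toledo 1 of 9 was below 1/2 (DUSP2) and 2 of 9 were above 2 (EGR1 and FOS), where 10.6% and 2.33% of all 11408 genes were. JQ1 libraries were the 2 lowest of the 4 for 5 of 7 members in SU-DHL-5 (39.5% of all genes) and for 4 of 9 in Toledo (44.5%). They were the 2 highest for 1 of 7 in SU-DHL-5 (39.3% of all genes) and for 3 of 9 in Toledo (27.7%). The median log2 ratio of the members was -0.29 in SU-DHL-5, against -0.0025 over all genes, and -0.08 in Toledo, against -0.10 over all genes. Members lay on both sides of 0 in each line.

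The calls in Toledo rest on low levels. With a pseudocount of 1 RPKM in place of 0.1, no member was called in Toledo, and with genes of a mean of at least 1 RPKM alone, FOS was the one called. FOS passed that limit only through its JQ1 libraries, with means of 0.558 RPKM with DMSO and 1.94 with JQ1. Its call there is therefore not independent of the filter.

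Set side by side, the log2 ratio in Toledo exceeded that in SU-DHL-5 by 1.97 for EGR1, 1.35 for FOS and 1.32 for DUSP5, and was lower by 1.07 for DUSP2. The differences for ETV5, DUSP6 and SPRED1 were 0.86, 0.16 and -0.20. Both JQ1 libraries below DMSO in SU-DHL-5 and above it in Toledo were found for 2 of the 7 members tested in both lines, EGR1 and DUSP5, and for 2.26% of the 10239 genes tested in both. With 1 sample per condition the difference between lines could not be tested.

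**Figure D3:**
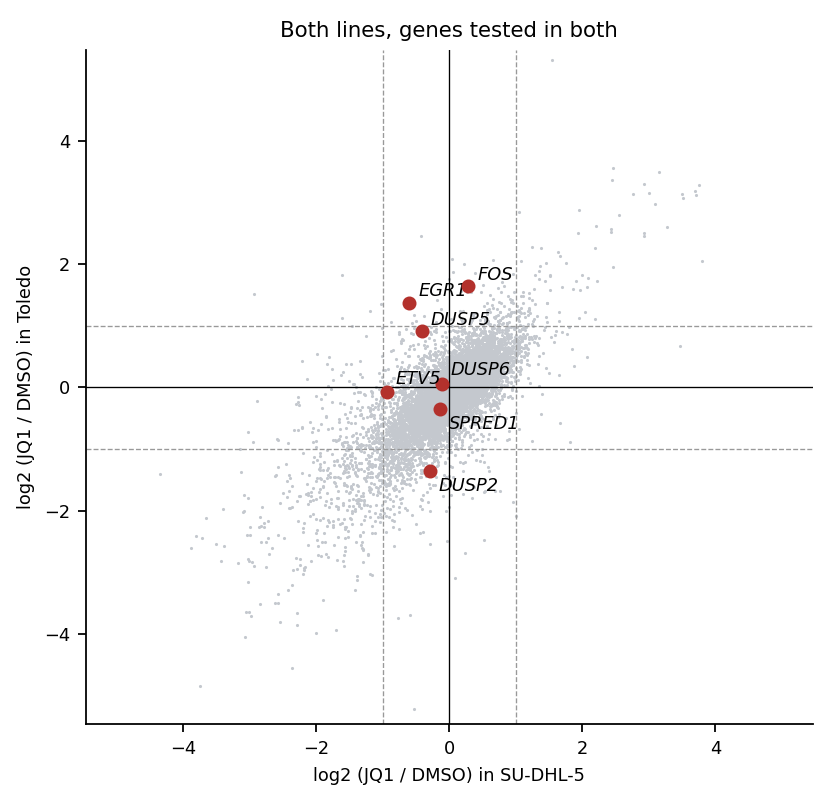
Log2 ratio of JQ1 to DMSO (pseudocount 0.1 RPKM) in SU-DHL-5 (x axis) and Toledo (y axis) for the 10239 genes tested in both lines (grey) and the 7 members among them (red, named); dashed lines mark 2-fold. EGR1 and DUSP5 lie at the upper left, DUSP2 and SPRED1 at the lower left and FOS at the upper right, and DUSP6 and ETV5 lie near 0 in Toledo.

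Other immediate early genes gave a mixed picture. For the counts of this and the next lists, 8.39% of all genes tested in SU-DHL-5 were below 1/2 and 2.11% above 2. In Toledo these shares were 10.6% and 2.33%. Of 22 such genes, 16 passed the filter in SU-DHL-5, where 1 was below 1/2 (NR4A1) and 2 above 2 (JUND and BTG2), with a median of -0.05. In Toledo 18 passed, 2 were below (EGR2 and EGR4) and 3 above (JUND, KLF2 and BTG2), with a median of 0.45. EGR4 was near the floor there, at 0.262 and 0.130 RPKM with DMSO and 0 and 0.0261 RPKM with JQ1. It passed the filter only through its DMSO libraries. JUND, an AP-1 subunit, measured 46.1 and 45.8 RPKM with DMSO and 109 and 103 RPKM with JQ1 in SU-DHL-5. The values for Toledo were 26.3 and 27.1 RPKM with DMSO and 70.5 and 75.0 RPKM with JQ1. BTG2, an antiproliferative gene, was at a log2 ratio of 1.02 (SU-DHL-5) and 1.13 (Toledo). Both genes were higher with JQ1 in each line, with libraries well apart.

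EGR2, the relative of EGR1, went the other way in Toledo. It measured 2.22 and 2.65 RPKM with DMSO and 0.817 and 0.667 RPKM with JQ1 there, while EGR1 was higher with JQ1. NR4A1, a nuclear receptor induced by antigen receptor signals, was lower with JQ1 in both lines, at -1.16 (SU-DHL-5) and -0.83 (Toledo) on the log2 scale. JUN, the AP-1 partner of FOS, was split between lines as EGR1 was. SU-DHL-5 held 3.20 and 3.28 RPKM of JUN with DMSO and 2.04 and 1.73 RPKM with JQ1, and Toledo held 6.25 and 6.36 RPKM with DMSO and 11.6 and 11.6 RPKM with JQ1. FOSB and IER2 had the same split of libraries, which was found for 2.26% of the 10239 genes tested in both lines. FOSB was near the floor, at 0.186 and 0.203 RPKM with DMSO and 0.0803 and 0.127 RPKM with JQ1 in SU-DHL-5. In Toledo it was at 0.0899 and 0.0652 RPKM with DMSO and 0.293 and 0.197 RPKM with JQ1, and it passed the filter there only through its JQ1 libraries. JUN, FOSB and IER2 were picked after their values were seen.

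Among 9 other ETS and SRF factors, ETV4, a PEA3-group relative of ETV5, was below 1/2 in both lines and was the one called, of 7 tested in SU-DHL-5 and 8 in Toledo. ETV4 measured 9.13 and 7.57 RPKM with DMSO and 1.67 and 1.46 RPKM with JQ1 in SU-DHL-5. Toledo held 4.63 and 4.62 RPKM with DMSO and 0.445 and 0.561 RPKM with JQ1. ETV4 lies within DHX8, which is on the opposite strand in the GENCODE annotation, and without stated use of strand their reads cannot be told apart. The log2 ratios of ETV4 were -2.34 and -2.97, far from those of ETV5 (-0.94 and -0.08). ELK3 was at -0.65 and -0.999, and ELK4 and SRF, the factor that binds CArG boxes, were at 0.45 and 0.59 (SU-DHL-5) and 0.26 and 0.18 (Toledo). The medians of this list were -0.28 and -0.33.

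In the cascade itself, MAPK3, which encodes ERK1, was the 1 gene below 1/2 in each line, of 16 tested in SU-DHL-5 and 17 in Toledo. MAPK3 measured 21.6 and 24.1 RPKM with DMSO and 7.09 and 6.33 RPKM with JQ1 in SU-DHL-5. Toledo held 23.2 and 21.8 RPKM with DMSO and 4.39 and 5.001 RPKM with JQ1. The kinase gene MKNK1 was above 2 in SU-DHL-5 and RPS6KA2 above 2 in Toledo. MAP2K1, which encodes MEK1, was at 0.30 and 0.44, RPS6KA1 at -0.26 and -0.76, and the medians of the list were 0.25 and 0.10.

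Of 6 other MAPK phosphatases, 4 passed the filter in SU-DHL-5 and none was past 2-fold, and 5 passed in Toledo, where DUSP8 was below 1/2 (0.958 RPKM with DMSO and 0.324 with JQ1). The medians were -0.28 (SU-DHL-5) and -0.76 (Toledo), and values below follow that order. DUSP16, which acts mainly on JNK and p38, was at -0.97 and -0.90, DUSP1 at -0.44 and -0.76, DUSP7 at -0.12 and -0.64, and DUSP10 at 0.16 and 0.45. Of the other Sprouty and Spred genes, SPRED2 alone passed the filter, at -0.69 (SU-DHL-5, libraries apart) and -0.19 (Toledo, libraries overlapping). SPRY3 was not analysed here. A list of 10 transcripts used to score MAPK activity holds 6 further genes besides DUSP4, DUSP6, SPRY2 and ETV5, of which 2 passed the filter in SU-DHL-5 and 3 in Toledo: ETV4 was below 1/2 and PHLDA1 above 2 in both lines, and EPHA4 was below 1/2 in Toledo. Medians were -0.63 and -1.36, but they rest on only 2 and 3 genes, which lay on both sides of 0 in each line. ETV4 is counted among the ETS factors above as well. PHLDA1 was near the floor with DMSO in SU-DHL-5, at 0.118 and 0.110 RPKM.

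**Figure D4:**
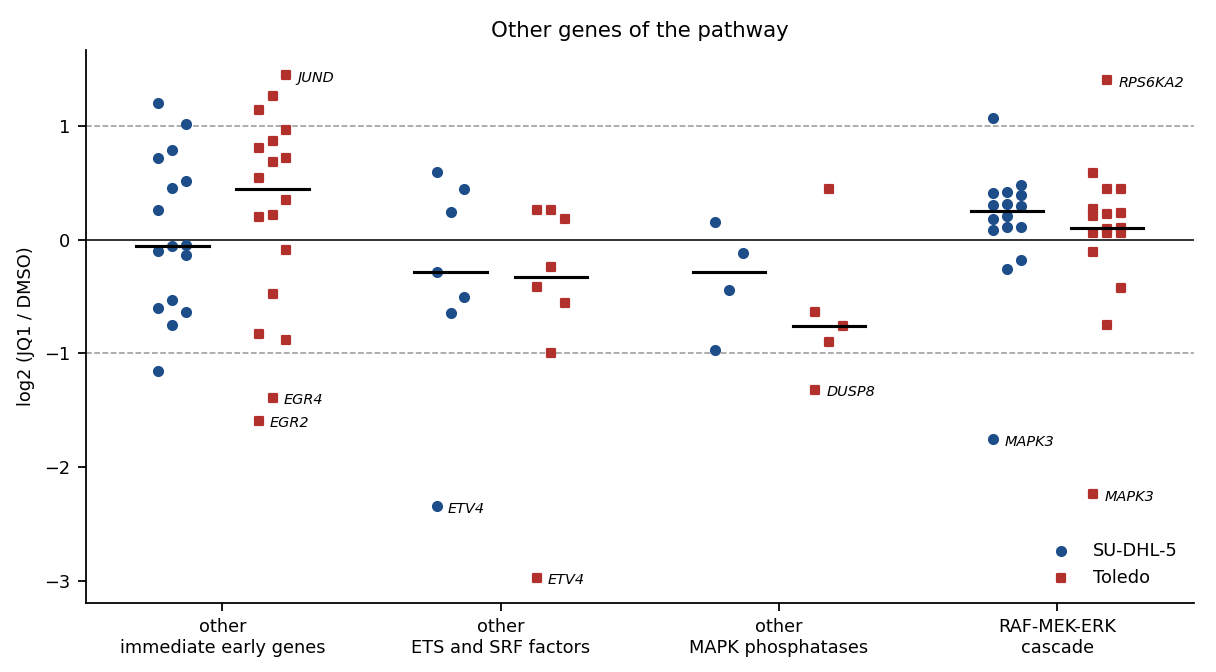
Log2 ratio of JQ1 to DMSO (y axis, pseudocount 0.1 RPKM) of the genes of 4 lists that passed the filter, in SU-DHL-5 (circles) and Toledo (squares); black lines are medians, dashed lines mark 2-fold, and genes beyond 1.3 on the log2 scale are named. ETV4 and MAPK3 are the lowest genes of their lists in both lines.

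Over the 8 libraries, the genes whose log2 levels were most like those of DUSP2, the member with the highest mean level, were ACBD5, SRXN1, ADAM19, RFTN1 and SDHB among 9520 genes compared (Pearson r 0.998 to 1.00). The libraries share lines and treatments in pairs, and DUSP2 is far higher in SU-DHL-5, so the likeness is mostly that of the lines and is a description only.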

How the data were processed

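SU-DHL-5 and Toledo cells with DMSO or JQ1 gave 1 RNA sample per condition, which was sequenced from stranded mRNA libraries. RPKM values of genes and of transcripts were deposited by the authors for 2 libraries of each sample. Per the labels, CASAVA 2.0 and the GRCh38 (hg38) build were named in the submitters' processing notes; the aligner, the counting and the annotation are not given in the sources used here. The titles of the treated samples spell the compound JO1 and their treatment label gives JQ1.

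The libraries of a sample were averaged. Ratios were log2((JQ1 + 0.1)/(DMSO + 0.1)) of mean RPKM, for genes with a mean of at least 0.1 RPKM over the 4 libraries of a line, and calls were ratios past 2-fold. With 1 sample per condition no test was made. The mapped reads of each library were recovered as the total at which single-exon genes held whole reads, and the length of a gene as the smallest one, from 100 to 40000 bases, at which all its values were whole reads within 0.002 reads. A length was found for 14942 of 14944 genes with a value. On simulated data, 98.2% of 391 lengths of genes with at least 20 reads were recovered, and in each line 100% of 200 genes changed 4-fold were called. Those 200 genes had levels of at least 1 RPKM and counting error was the only noise. The simulation therefore does not cover smaller ratios, lower levels or differences between samples. Reads served for intervals and for the limit of 3 reads where a gene was at 0, and no count model was fitted.

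All members were named, and genes of the other lists by the 2 lowest and 2 highest mean ratios, besides those called. The members and lists were chosen with earlier results of these data known. Motifs were searched in RefSeq promoters (GRCh38.p14). Overlaps used GENCODE 29, in which 99.8% of shared symbols overlapped the deposited positions. Alternatives were other pseudocounts and filters, transcript sums, single libraries, a median scaling and a centring on length by the median in classes of length. Scripts ran under Python 3.11.15 with scipy 1.17.1 and pandas 2.3.3.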

Additional observations from a re-analysis of the deposited data

Results flagged for a closer look

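Members for which every JQ1 library moved one way in a line and the opposite way in the other were EGR1 and DUSP5. For EGR1 the log2 ratio in Toledo exceeded that in SU-DHL-5 by 1.97 (1.37 against -0.60), with 39 DMSO reads and 112 JQ1 reads in Toledo. For DUSP5 it did so by 1.32 (0.91 against -0.41), and in Toledo the DMSO libraries differed from each other by 0.60 and the JQ1 libraries by -0.53 on the log2 scale. The difference was not tested for either gene, since each condition was 1 sample.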

How the results depend on the processing

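No paired analysis was possible because the numbers in the column names mark libraries of a single sample per condition. Of 186 alternative values of single genes, 14 moved by more than the arm of the counting interval and 3 had another sign than the main value, all of DUSP6, whose JQ1 ratios were not called. Those that moved include 2 called ratios of Toledo, which came under 2-fold with a pseudocount of 1 RPKM (EGR1, 0.62 on the log2 scale, and FOS, 0.92). They also include the called DMSO differences between lines of DUSP2, DUSP6, SPRY1, EGR1 and FOS at that pseudocount. The difference of FOS came under 2-fold, at -0.80 (Toledo over SU-DHL-5, log2 scale) against -1.46 in the main setting. Those of DUSP2, DUSP6, SPRY1 and EGR1 stayed past 2-fold. In SU-DHL-5 the count of members below 1/2 was 0 in all alternatives except a limit of 1.5-fold, which gave 2. In Toledo the count below 1/2, 1 in the main setting, was 0 with a pseudocount of 1 RPKM, 0 with a mean of at least 1 RPKM, 2 from library 2 alone and 2 at 1.5-fold. The count above 2 in Toledo, 2 in the main setting, was 0 with a pseudocount of 1 RPKM and 1 with a mean of at least 1 RPKM. That 1 was FOS, which passed the limit only through its JQ1 libraries. It was 3 from library 1 alone, 3 without DMSO library 2, an alternative chosen after seeing the data, and 2 without DMSO library 1. The median of the members in Toledo, -0.08, was -0.22 with no filter on low values, which adds SPRY2. In Toledo, the log2 ratio of library 2 to library 1 of DMSO rose with gene length (Spearman's rho 0.62 over 9467 genes). That of JQ1 fell with gene length (rho -0.28 over 9157 genes). Centring the ratios on length gave 1 member below 1/2 and 3 above 2, with DUSP5 added at 1.01 on the log2 scale. The median ratio of all genes used for scaling was 0.02 (SU-DHL-5) and -0.07 (Toledo) on the log2 scale, so scaling lowered the ratios of SU-DHL-5 and raised those of Toledo by about that much. Depth limits DUSP4, SPRY2 and, in SU-DHL-5, SPRY1, which had at most 22 reads in a condition.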
